A study of Mus musculus with 27 samples.

Results

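The genes described here build and run the DNA replication machine of a dividing cell: 48 genes that license replication origins, fire them, copy DNA at the fork, supply deoxynucleotides or keep DNA methylation as the fork passes. They were chosen by function, and each was read through array probe sets annotated to that gene alone. All 48 were on the array annotation and all 48 passed the filter on low signals, as part of 13527 named genes tested. The 48 genes had 106 probe sets, of which 94 were kept, and each gene is represented by its kept probe set of highest mean signal. The filter asked for a signal above the table median on at least 3 arrays of any group. The probe sets used for Cdc6, Dbf4, Pole, Gins2, Tyms, Tk1, Cdc45, Gins1, Pole2 and Uhrf1 were below this median on every non-tumour array. They passed only through tumour arrays, so their rises are not independent of the filter.

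The study profiled 27 Affymetrix arrays of total RNA from mouse cerebellum, from medulloblastomas driven by Hedgehog signalling and from non-tumour cerebellar tissue. Tumour arrays came from Ptc1+/- mice (2 arrays), which lack a working copy of the Hedgehog receptor gene Ptc1 in every cell, and from mice carrying SmoM2, an active form of the Hedgehog transducer Smoothened, under control of 1 of 4 Cre drivers: 6 hGFAP-cre:SmoM2, 7 Olig2-tva-cre:SmoM2, 3 Math1-cre:SmoM2 and 3 Tlx3-cre:SmoM2 tumours. Non-tumour tissue gave 6 arrays from mice of such lines, arrays 1 and 2 from Olig2-tva-cre:SmoM2, array 3 from hGFAP-cre:SmoM2, arrays 4 and 5 from Mxi1-cre:SmoM2, as the labels spell it, and array 6 from Ptc1+/- animals, so these mice carried Hedgehog pathway alleles like those of the tumour mice. The hGFAP and Olig2 drivers act in multipotent neural progenitors, and the Math1 and Tlx3 drivers in cells of the granule neuron lineage. The tumours are called Ptc1+/-, hGFAP, Olig2, Math1 and Tlx3 tumours below. Tumour labels say biological replicate and non-tumour labels only number the controls, with no animal, age or sex named, so each p-value reflects only how far the deposited samples spread. The comparisons with non-tumour tissue share the same 6 arrays.

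Before a cell copies its DNA, the origin recognition complex sits on origins and, with Cdc6 and Cdt1, loads the ring-shaped MCM helicase, a step called licensing. The kinase made of Cdc7 and Dbf4 and the factors Mcm10, Cdc45 and GINS then turn the loaded ring into a moving fork, where polymerases copy both strands, the clamp PCNA holds them on the template, and ribonucleotide reductase and thymidine enzymes supply building blocks. In the cerebellum, granule neuron precursors are the cells known for dividing under Hedgehog signalling after birth, while mature granule and Purkinje neurons no longer replicate their DNA.

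Signals are given as log2 of the authors' MAS5 signal after every array was rescaled to the same trimmed mean, with a floor at 3.37, which is the 20th percentile of the table, and a gene at this floor has only an upper bound there. Differences are tumour minus non-tumour on this log2 scale, where 1 is a doubling of signal, and those of all tumours are fitted with equal weight for the 5 tumour groups. Where non-tumour arrays were at the floor, the plain mean over the 21 tumour arrays minus the non-tumour mean is given as a lower bound ("at least"). The fitted value beside it weights the 5 groups equally, so it can lie above or below that bound. With no tumour array at the floor, the fitted value is a lower bound of its own equal-weight difference. Such genes have no sure order among themselves or against others. The test ran on the fitted differences, and a gene was called when the Benjamini-Hochberg adjusted p of limma's moderated test over all 13527 genes was under 0.05. The deposited trimmed means ran from 42.6 to 206 before rescaling. Within groups the median correlation between arrays ran from 0.863 to 0.961. For these genes 2 arrays stood apart. hGFAP array 4 was the lowest of the 21 tumour arrays for 23 of the 48 genes, against 12.0% of all genes, with a mean of 7.60 over the 48 genes, and its mean log2 ratio of 3' over 5' control probe sets was the highest of all arrays at 1.88. Olig2 array 4 at 1.78, non-tumour array 1 at 1.75, Olig2 array 3 at 1.72 and hGFAP array 6 at 1.67 were close to it. Olig2 array 4, Olig2 array 3 and hGFAP array 6 were the lowest tumour array for 3, 0 and 2 members. Non-tumour array 6, the Ptc1+/- sample, was the highest non-tumour array for 27 of the 45 members that were not tied at the floor, against 20.8% of all genes, with a mean of 6.52, against 5.94 to 6.07 on the other non-tumour arrays. Dividing-cell markers moved with both: 11 of 11 were below the mean of the other hGFAP arrays on hGFAP array 4 (median -1.16), and 11 of 11 were above the mean of the other non-tumour arrays on non-tumour array 6 (median 0.84). The main results that rest on these arrays are given with and without them.

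Across all tumours, 45 of the 48 genes were higher than in non-tumour cerebellum and 0 were lower, where 26.8% of all genes were called higher and 25.6% lower. The counts here include the members whose probe sets passed the filter only through tumour arrays. The median difference over the members was 2.34, against 0.02 over all genes tested. At least 2-fold increases were called for 38 members, against 13.3% of all genes. The members' mean ran from 8.53 to 8.82 in the Ptc1+/- tumours, from 7.60 to 8.56 in the hGFAP tumours, from 8.34 to 8.96 in the Olig2 tumours, from 8.53 to 8.65 in the Math1 tumours and from 8.39 to 8.53 in the Tlx3 tumours, against 5.94 to 6.52 in non-tumour tissue. Every tumour array was above every non-tumour array for 33 members (8.14% of all genes), and for 38 members (9.88%) once hGFAP array 4 and non-tumour array 6 were left out. The count of 45 was also 45 without those 2 arrays. The 3 genes that did not pass the test were Rpa1, Orc4 and Fen1. When the deposited signals were left unscaled, 38 members were higher and 0 lower, and Orc1, Orc2, Orc5, Cdc7, Gins3, Gins4 and Pold3 no longer passed. The shares of all genes called without those arrays or without scaling are not given here. In tissue RNA, fewer cells of a type and less RNA per cell cannot be told apart.

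**Figure D1:**
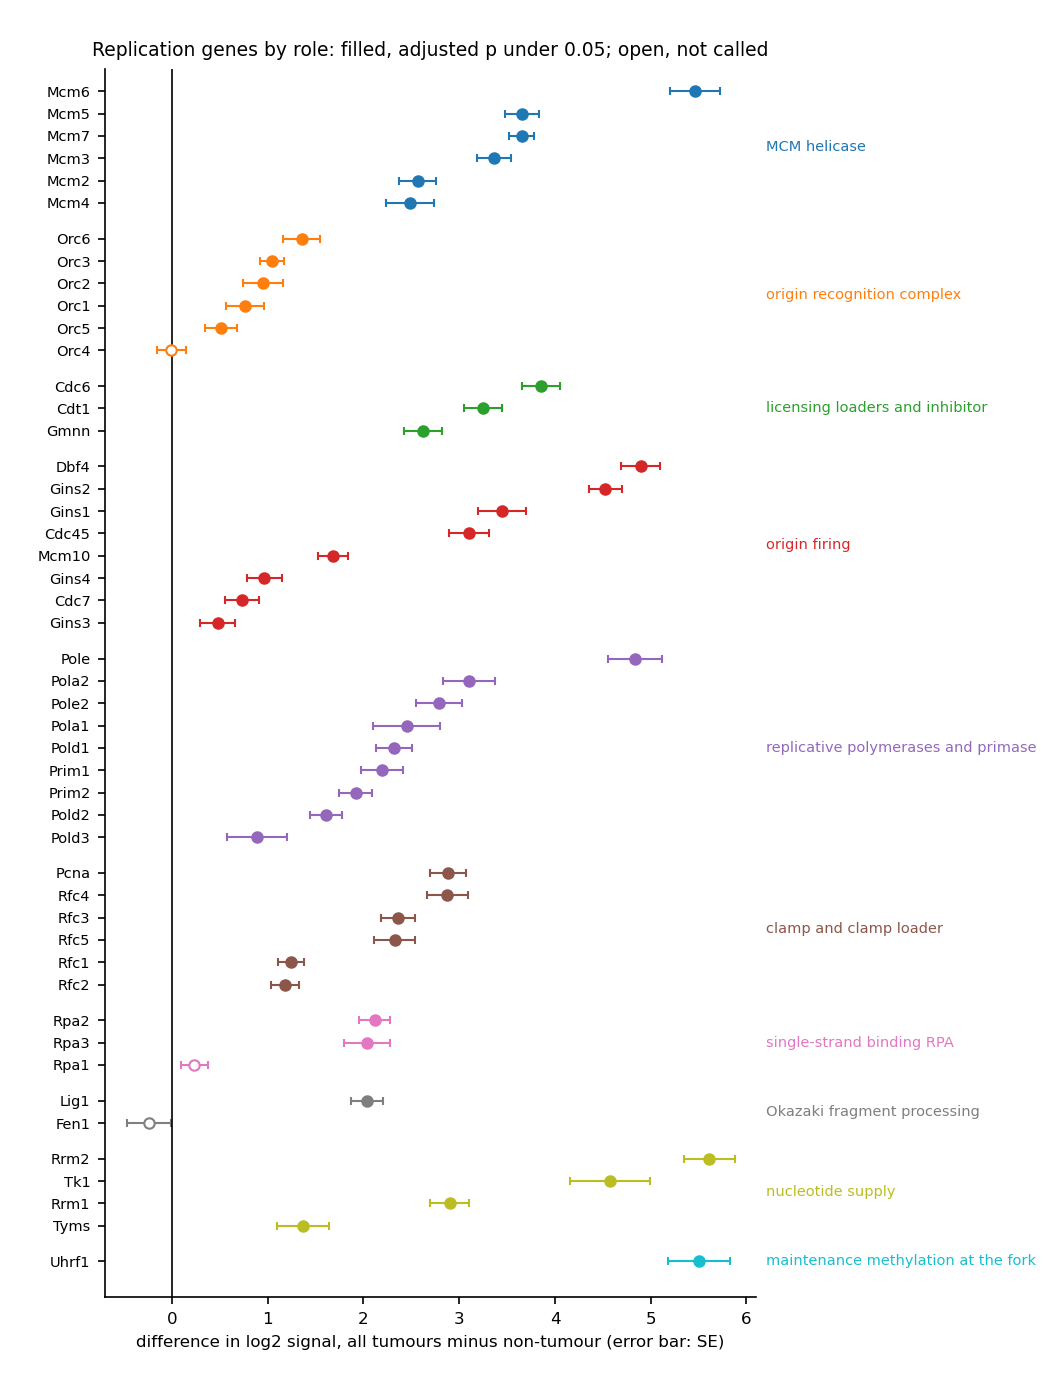
Log2 difference of all tumours minus non-tumour tissue for each of the 48 genes, grouped by role, from limma over 27 arrays, with bars for standard errors and open points for the 3 genes not called. The fitted values of Rrm2 (5.61), Uhrf1 (5.50) and Mcm6 (5.46) are at the top. The order there depends on the floor for genes with non-tumour arrays at it. On the probe sets used, the origin recognition complex has the lowest median of the role groups (0.86).

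Cell type markers differed between tumour and non-tumour tissue in the same comparison, where 26.8% of all genes were called higher and 25.6% lower. Of 11 dividing-cell markers, 11 were higher (median 4.50), with summed signals of 3768 to 14501 in tumours, against 209 to 525 in non-tumour tissue. On the non-tumour arrays the dividing-cell markers Bub1, Birc5, Cenpa, Plk1 and Mki67 were at the floor on 4, 3, 3, 2 and 1 arrays. Of 6 granule precursor markers 5 were higher (median 4.50). All 9 mature granule neuron markers were lower (median -3.93), and their summed signal was 1898 to 7077 in tumours, against 19648 to 28611 in non-tumour tissue. All 6 Purkinje cell markers were lower (median -4.83; summed signal 361 to 4181 in tumours, against 20296 to 27465 in non-tumour tissue), and all 7 oligodendrocyte markers were lower (median -2.69; 379 to 5320 in tumours, against 7928 to 13554). In tumours Mog was at the floor on 13 of 21 arrays, Slc1a6 on 12 and Ermn on 10. Microglial markers were higher for 8 of 8 (median 2.60), astrocyte markers lower for 6 of 6 (median -1.12), and endothelial markers lower for 2 of 5 (median -0.13). The part of these cell types in the members' differences was not tested.

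**Figure D2:**
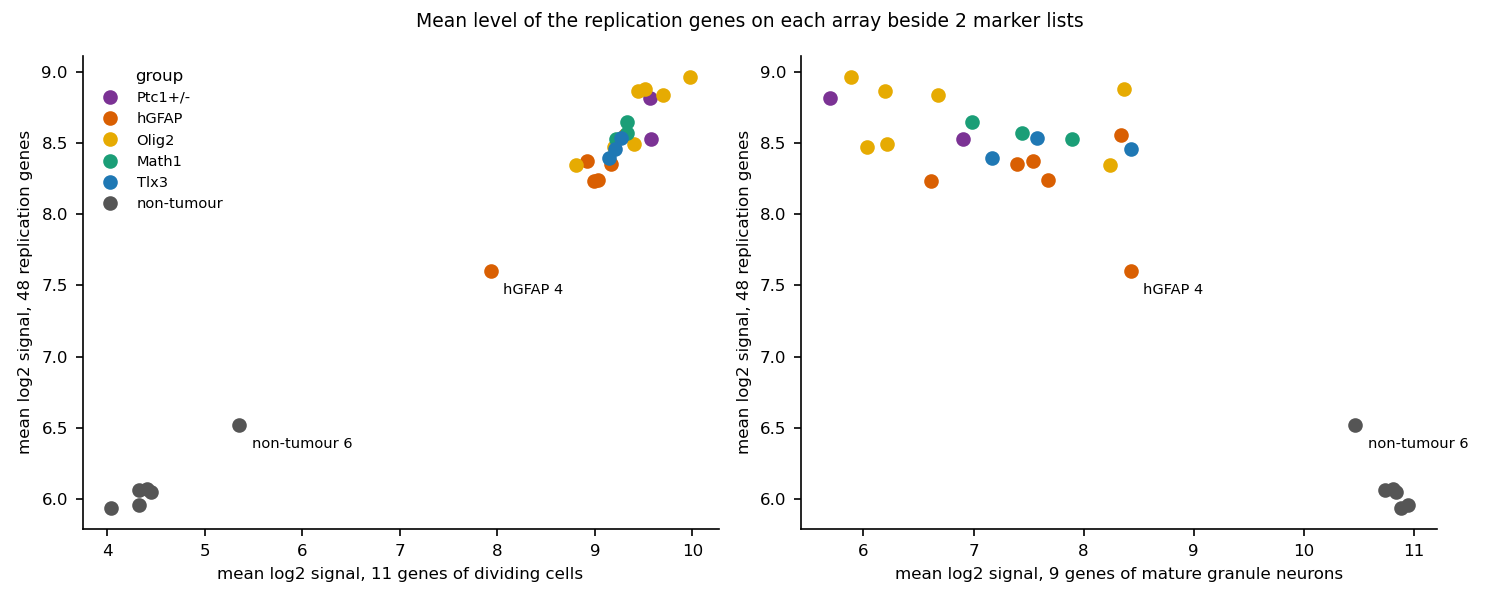
Mean log2 signal of the 48 genes on each of 27 arrays, plotted against the mean of 11 dividing-cell genes and against the mean of 9 mature granule neuron genes. Tumour arrays sit at 7.60 to 8.96 and non-tumour arrays at 5.94 to 6.52, and hGFAP array 4 and non-tumour array 6 are labelled.

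The promoters of the members at both ends of the range are printed here because they let the letters before the start site be set beside the differences. RefSeq promoter entries on the GRCm38.p6 build, 250 bases before to 50 bases after each gene start, were matched by gene for 40 of the 48 members. Shown are the 3 members with the highest fitted differences at this floor, an order that the floor can change, Rrm2 (chr12:24708004-24708303, plus strand), Uhrf1 (chr17:56303087-56303386, plus strand, the first of 2 entries) and Mcm6 (chr1:128359656-128359955, minus strand), and the 2 with the lowest, Orc4 (chr2:48950032-48950331, minus strand, the first of 3 entries) and Fen1 (chr19:10204344-10204643, minus strand, the first of 2 entries). Each runs 5′ to 3′ on the gene's strand, and capitals mark matches on either strand to an E2F site (TTTCCCGC, TTTCGCGC, TTTGCCGC or TTTGGCGC), a CCAAT box (CCAAT) or a cell cycle homology region (TTCGAA or TTTGAA).
Rrm2: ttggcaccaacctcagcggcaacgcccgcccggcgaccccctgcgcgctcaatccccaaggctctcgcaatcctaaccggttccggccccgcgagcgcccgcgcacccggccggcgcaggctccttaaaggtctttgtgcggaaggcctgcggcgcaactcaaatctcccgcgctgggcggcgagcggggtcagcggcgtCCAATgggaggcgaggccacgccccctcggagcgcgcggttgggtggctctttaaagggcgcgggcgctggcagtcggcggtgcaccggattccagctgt
Uhrf1: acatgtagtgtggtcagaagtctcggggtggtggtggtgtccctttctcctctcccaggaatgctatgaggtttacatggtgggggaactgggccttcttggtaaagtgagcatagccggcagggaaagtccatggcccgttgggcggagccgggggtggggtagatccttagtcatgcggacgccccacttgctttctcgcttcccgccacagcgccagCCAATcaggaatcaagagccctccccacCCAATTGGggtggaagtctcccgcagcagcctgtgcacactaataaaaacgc
Mcm6: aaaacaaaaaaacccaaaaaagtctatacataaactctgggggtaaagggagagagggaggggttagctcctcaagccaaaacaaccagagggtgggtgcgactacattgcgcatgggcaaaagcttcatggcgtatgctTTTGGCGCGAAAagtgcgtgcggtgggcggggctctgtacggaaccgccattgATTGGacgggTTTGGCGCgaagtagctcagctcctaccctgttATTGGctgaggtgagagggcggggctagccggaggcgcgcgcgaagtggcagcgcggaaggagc
Orc4: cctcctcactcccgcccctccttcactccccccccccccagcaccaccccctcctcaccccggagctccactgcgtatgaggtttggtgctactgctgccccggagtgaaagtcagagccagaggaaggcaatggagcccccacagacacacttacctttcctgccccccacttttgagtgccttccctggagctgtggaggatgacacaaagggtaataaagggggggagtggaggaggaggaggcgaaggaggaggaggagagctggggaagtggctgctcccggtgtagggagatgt
Fen1: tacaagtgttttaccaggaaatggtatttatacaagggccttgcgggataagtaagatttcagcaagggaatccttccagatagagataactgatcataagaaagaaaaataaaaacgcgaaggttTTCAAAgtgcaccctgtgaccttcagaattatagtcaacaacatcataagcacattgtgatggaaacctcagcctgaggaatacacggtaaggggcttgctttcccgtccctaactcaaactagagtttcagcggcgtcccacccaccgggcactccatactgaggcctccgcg
Counted from 1 at the 5′ end, the Rrm2 entry held CCAAT at 201 to 205. The Uhrf1 entry held CCAAT at 221 to 225 and at 249 to 253 and, on the other strand, overlapping it, at 252 to 256. The Mcm6 entry held TTTGGCGC at 141 to 148 and at 204 to 211, a match to TTTCGCGC on the other strand at 145 to 152 that overlaps the first, and CCAAT on the other strand at 194 to 198 and 237 to 241. The Fen1 entry held TTTGAA on the other strand at 127 to 132, and the Orc4 entry printed held none of these letters, while another of its entries held CCAAT.

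Over all entries of a gene, an E2F site was matched in 16 of 40 members (40%), against 489 of 10899 tested genes with an entry (4.49%). CCAAT was matched in 24 members (60.0%), against 42.5% of tested genes with an entry. The cell cycle homology region was matched in 9 members (22.5%), against 16.5%. Counted by promoter entry and not by gene, 16 of the members' 50 entries held an E2F site, against 744 of all 32851 promoters (2.26%). CCAAT was in 27 of the 50, against 37.4% of all promoters. The cell cycle homology region was in 10 of the 50, a share close to the 19.2% of all promoters. E2F letters were in 13 of the 31 members with an entry that were at least 2-fold higher in tumours (41.9%) and in 3 of the 9 others (33.3%). Among the 3 printed members with high differences, Mcm6 held E2F letters in the printed window, Uhrf1 in its other entry, and Rrm2 in no entry. A match is a run of letters and not a measured binding site.

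The MCM2 to MCM7 ring is the replicative helicase, and all 6 of its genes rose in tumours, by a median of 3.51. Mcm6 read 10.37 and 10.02 in the Ptc1+/- tumours, 9.01 to 9.80 with a median of 9.21 in the hGFAP tumours, 9.47 to 10.80 with a median of 10.35 in the Olig2 tumours, 9.93, 9.61 and 9.88 in the Math1 tumours, and 9.91, 9.88 and 9.77 in the Tlx3 tumours. Non-tumour Mcm6 signals were 3.37 to 6.22 with a median of 4.33, below every tumour array, and 2 of them were at the floor. Mcm6 rose by at least 5.44, 43.3-fold, with a fitted difference of 5.46 (SE 0.26), a limma adjusted p of 3.5e-16, and a fitted difference of 5.83 without hGFAP array 4 and non-tumour array 6. Mcm7, another subunit of the ring, read 12.11 and 12.36 in the Ptc1+/- tumours, 11.51 to 12.22 with a median of 11.72 in the hGFAP tumours, 12.19 to 12.68 with a median of 12.51 in the Olig2 tumours, 12.03, 11.89 and 11.85 in the Math1 tumours, and 11.89, 11.89 and 11.86 in the Tlx3 tumours. Non-tumour Mcm7 signals were 8.05 to 9.09 with a median of 8.31, again below every tumour array. It rose by 3.65 (SE 0.13), 12.6-fold, with a limma adjusted p of 1.08e-18. Mcm3 read 8.73 and 9.58 in the Ptc1+/- tumours, 7.98 to 9.18 with a median of 8.34 in the hGFAP tumours, 8.92 to 9.92 with a median of 9.44 in the Olig2 tumours, 8.42, 8.30 and 8.84 in the Math1 tumours, and 8.77, 8.71 and 8.57 in the Tlx3 tumours. For Mcm3 the non-tumour arrays were at 5.12 to 5.77 with a median of 5.55, with no overlap, and the rise was 3.37 (SE 0.18) with a limma adjusted p of 2.01e-15. All 5 kept Mcm3 probe sets were higher, by 2.61 to 4.73. Mcm2 read 10.33 and 9.41 in the Ptc1+/- tumours, 8.73 to 10.02 with a median of 9.53 in the hGFAP tumours, 9.16 to 10.05 with a median of 9.41 in the Olig2 tumours, 9.47, 9.24 and 8.92 in the Math1 tumours, and 9.24, 9.16 and 9.12 in the Tlx3 tumours. Its non-tumour signals were 6.22 to 7.80 with a median of 6.81, where the highest was that of array 6, and no tumour array fell among them. Mcm2 rose by 2.57 (SE 0.19), 5.93-fold, with a limma adjusted p of 5.08e-12, while its other probe set gave 4.32. Mcm5 and Mcm4 completed the ring with rises of 3.66 (SE 0.17) and 2.49 (SE 0.25), limma adjusted p 2.6e-16 and 1.85e-09, and with every tumour array above every non-tumour array for both.

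On the probe sets used, the origin recognition complex, which marks origins and stays on chromatin, had the lowest median difference of the roles. Okazaki fragment processing (Fen1 and Lig1) was next at 0.90, and this order rests on the probe set chosen for each gene. Of its 6 subunits 5 rose and the median difference was 0.86, against 3.51 for the helicase ring that it helps to load. Orc6, a subunit that binds the core complex loosely, read 9.07 and 8.23 in the Ptc1+/- tumours, 7.68 to 8.26 with a median of 8.05 in the hGFAP tumours, 7.50 to 9.31 with a median of 8.67 in the Olig2 tumours, 8.68, 8.45 and 7.92 in the Math1 tumours, and 8.02, 8.63 and 8.38 in the Tlx3 tumours. Non-tumour Orc6 signals were 6.79 to 7.30 with a median of 7.02, below every tumour array, and Orc6 rose by 1.35 (SE 0.20) with a limma adjusted p of 1.21e-06. Orc3 rose by 1.05 (SE 0.13), again with no overlap between tumour and non-tumour arrays, but only on 1 of its 3 probe sets, since the others gave 0.13 (adjusted p 0.570) and 0.02 (adjusted p 0.943). Orc2 rose by 0.95 (SE 0.21) and Orc1, the ATPase subunit, by 0.76 (SE 0.20), with limma adjusted p of 0.00034 and 0.00216 and with overlap between tumour and non-tumour arrays. Both kept Orc1 probe sets were called higher, with differences 1.09 apart, and over the alternatives the Orc1 difference ran from 0.41 to 1.31. Orc5 read 7.43 and 7.60 in the Ptc1+/- tumours, 6.40 to 7.57 with a median of 7.18 in the hGFAP tumours, 6.85 to 8.10 with a median of 7.50 in the Olig2 tumours, 7.43, 7.02 and 6.93 in the Math1 tumours, and 7.51, 7.69 and 7.34 in the Tlx3 tumours. Non-tumour Orc5 signals were 6.48 to 7.26 with a median of 6.80, with 14 of 21 tumour arrays above all of them, and the rise was 0.51 (SE 0.17) with a limma adjusted p of 0.0125. Orc4 read 8.29 and 7.72 in the Ptc1+/- tumours, 7.55 to 8.06 with a median of 7.87 in the hGFAP tumours, 7.25 to 8.19 with a median of 7.83 in the Olig2 tumours, 7.60, 7.88 and 7.95 in the Math1 tumours, and 8.05, 7.65 and 8.02 in the Tlx3 tumours. With non-tumour Orc4 signals of 7.35 to 8.30 with a median of 7.85, the ranges lay on top of each other and no tumour array was above all non-tumour arrays. The Orc4 difference was -0.01 (SE 0.15), adjusted p 0.978, and its 3 probe sets gave -0.01, -0.07 and -0.02 with adjusted p of 0.979, 0.806 and 0.946.

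**Figure D3:**
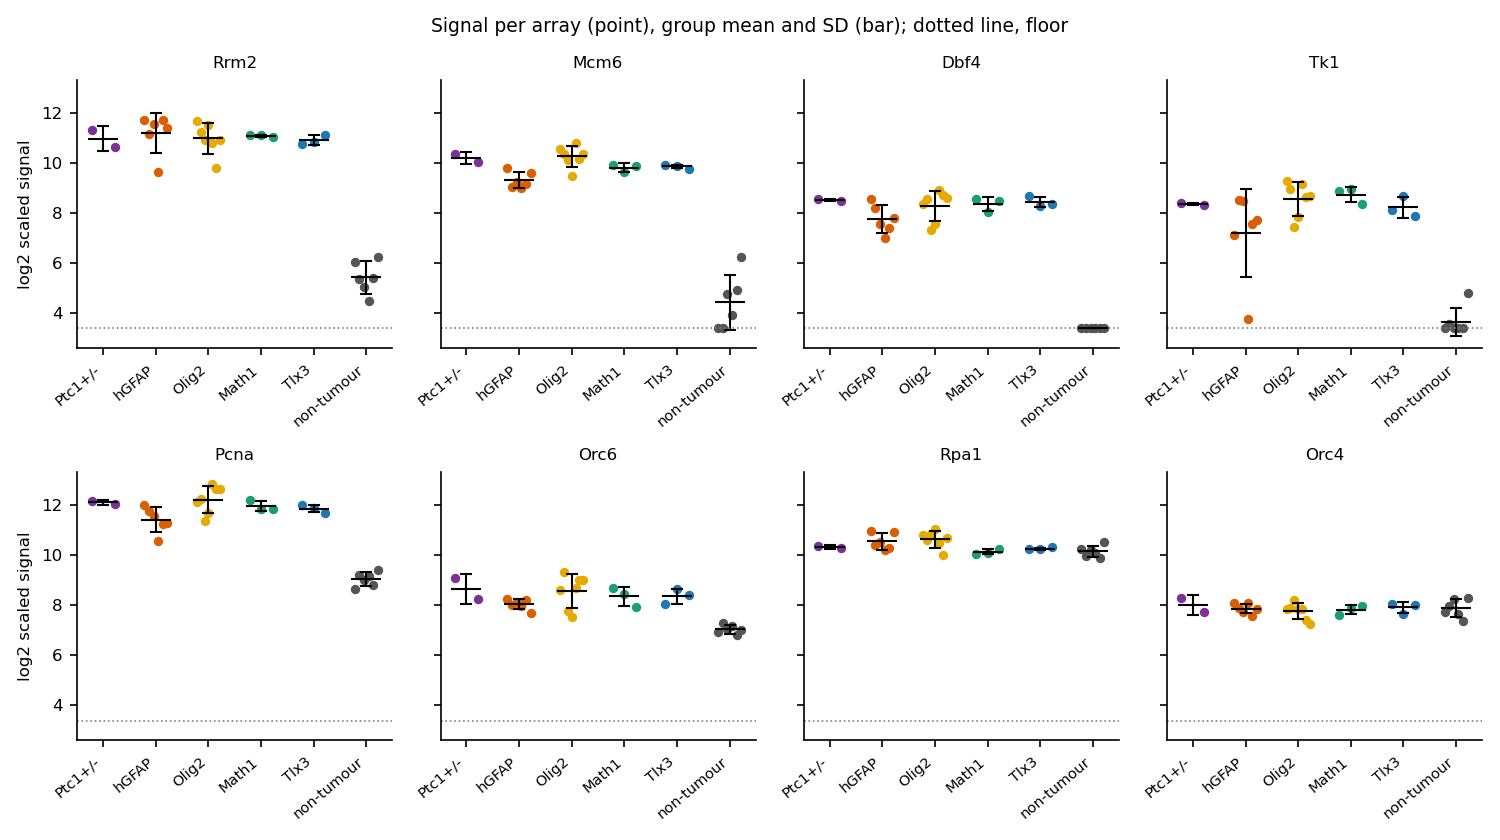
Log2 signal on each array by group for Rrm2, Mcm6, Dbf4, Tk1, Pcna, Orc6, Rpa1 and Orc4, with points for arrays, bars for group means and SDs, and a dotted line at the floor of 3.37. Dbf4 is at the floor on all 6 non-tumour arrays, whereas the Orc4 and Rpa1 points of tumour and non-tumour arrays overlap.

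The loaders of the ring and their inhibitor rose in 3 of 3 cases, by a median of 3.25. Cdc6, the ATPase that brings Cdt1 and the ring to the origin, read 7.78 and 6.93 in the Ptc1+/- tumours, 6.13 to 7.66 with a median of 6.83 in the hGFAP tumours, 7.14 to 8.34 with a median of 7.85 in the Olig2 tumours, 7.23, 7.20 and 6.91 in the Math1 tumours, and 7.32, 7.07 and 6.42 in the Tlx3 tumours. All 6 non-tumour Cdc6 signals were at the floor of 3.37, so the rise was at least 3.92, or 15.1-fold, with a fitted difference of 3.86 (SE 0.20) and a limma adjusted p of 1.24e-15. Cdt1, the partner of Cdc6, rose by 3.25 (SE 0.20), with signals of 9.17 to 10.84 over all tumours, against 6.37 to 7.35 in non-tumour tissue. Gmnn encodes geminin, which binds Cdt1 and blocks another round of licensing, and it rose together with its target by 2.62 (SE 0.20), limma adjusted p 3.49e-12. Its signals were 6.81 to 8.77 over all tumours, against 4.59 to 5.85 in non-tumour tissue.

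Origin firing genes were called higher in 8 of 8 cases with a median of 2.39, but they spread widely. Dbf4, the regulatory subunit that activates the kinase Cdc7, read 8.54 and 8.49 in the Ptc1+/- tumours, 6.997 to 8.54 with a median of 7.68 in the hGFAP tumours, 7.32 to 8.90 with a median of 8.55 in the Olig2 tumours, 8.54, 8.02 and 8.45 in the Math1 tumours, and 8.67, 8.28 and 8.34 in the Tlx3 tumours. It was at the floor on all 6 non-tumour arrays and rose by at least 4.81, 28.1-fold, with a fitted difference of 4.90 (SE 0.20) and a limma adjusted p of 1.13e-17 (fitted 4.93 without hGFAP array 4 and non-tumour array 6). The kinase subunit itself had a smaller difference. Cdc7 read 8.29 and 8.34 in the Ptc1+/- tumours, 7.34 to 8.56 with a median of 7.92 in the hGFAP tumours, 8.04 to 8.47 with a median of 8.40 in the Olig2 tumours, 7.81, 7.98 and 8.54 in the Math1 tumours, and 8.57, 8.03 and 7.67 in the Tlx3 tumours. Non-tumour Cdc7 signals were 6.63 to 8.10 with a median of 7.42, and 11 of 21 tumour arrays were above all of them. Cdc7 rose by 0.73 (SE 0.18), limma adjusted p 0.000915, on 1 of its 2 probe sets, the other giving 0.51 with an adjusted p of 0.0775.

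The GINS ring, part of the moving helicase with Cdc45 and MCM, has 4 subunits with unlike differences. Gins2 read 7.996 and 8.01 in the Ptc1+/- tumours, 6.69 to 8.03 with a median of 7.84 in the hGFAP tumours, 7.65 to 8.68 with a median of 8.24 in the Olig2 tumours, 8.16, 8.03 and 8.11 in the Math1 tumours, and 7.88, 7.81 and 7.83 in the Tlx3 tumours. Non-tumour Gins2 signals were 3.37 to 3.51 with a median of 3.39, at or just above the floor and far below every tumour array. Gins2 rose by at least 4.51, 22.8-fold, with a fitted difference of 4.53 (SE 0.17) and a limma adjusted p of 1.92e-18. Gins1 rose by at least 3.46 (fitted difference 3.44, SE 0.25) with 2 non-tumour arrays at the floor, and Gins4 by 0.96 (SE 0.18) with overlapping arrays. Gins3 read 6.78 and 6.39 in the Ptc1+/- tumours, 5.97 to 6.58 with a median of 6.27 in the hGFAP tumours, 5.76 to 6.87 with a median of 6.13 in the Olig2 tumours, 5.95, 6.40 and 6.29 in the Math1 tumours, and 6.21, 5.73 and 5.74 in the Tlx3 tumours. Its non-tumour signals were 4.96 to 6.32 with a median of 5.83, and only 8 of 21 tumour arrays were above all of them. The Gins3 difference of 0.48 (SE 0.19) had a limma adjusted p of 0.0315, and was 0.32 with an adjusted p of 0.156 without non-tumour array 1. Cdc45, which joins GINS and MCM, was read by probe sets on both sides of 0. On probe set 1416575_at it read 8.13 and 8.41 in the Ptc1+/- tumours, 6.29 to 7.87 with a median of 7.67 in the hGFAP tumours, 7.28 to 8.63 with a median of 8.35 in the Olig2 tumours, 8.01, 7.84 and 7.88 in the Math1 tumours, and 7.95, 7.92 and 7.96 in the Tlx3 tumours. Non-tumour signals of that Cdc45 probe set were 4.57 to 5.16 with a median of 4.81, below every tumour array, and the rise was 3.11 (SE 0.21) with a limma adjusted p of 4.3e-13. On 1457838_at it read 6.29 and 6.21 in the Ptc1+/- tumours, 5.55 to 6.41 with a median of 5.98 in the hGFAP tumours, 3.37 to 5.91 with a median of 5.24 in the Olig2 tumours, 5.94, 5.71 and 6.09 in the Math1 tumours, and 5.24, 4.88 and 4.95 in the Tlx3 tumours. There the non-tumour signals were 5.34 to 6.11 with a median of 5.83, inside the tumour range, and the difference was -0.16 with an adjusted p of 0.640. Mcm10, which works with Cdc45 at the ring, rose by 1.68 (SE 0.16) and did so on 2 of its 3 probe sets.

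Polymerases and primase rose in 9 of 9 cases by a median of 2.32. Pole, the catalytic subunit of the leading-strand polymerase epsilon, read 9.22 and 7.88 in the Ptc1+/- tumours, 6.08 to 8.78 with a median of 7.997 in the hGFAP tumours, 7.05 to 9.06 with a median of 8.23 in the Olig2 tumours, 9.02, 8.94 and 7.93 in the Math1 tumours, and 7.83, 8.10 and 8.10 in the Tlx3 tumours. All 6 non-tumour Pole signals were at the floor, and the rise was at least 4.73, 26.5-fold, with a fitted difference of 4.83 (SE 0.28) and a limma adjusted p of 1.98e-14. Its partner subunit Pole2 rose by 2.79 (SE 0.24). Pold1, the catalytic subunit of polymerase delta, read 9.03 and 8.998 in the Ptc1+/- tumours, 7.08 to 8.47 with a median of 7.90 in the hGFAP tumours, 8.30 to 9.25 with a median of 8.84 in the Olig2 tumours, 9.38, 9.06 and 8.69 in the Math1 tumours, and 8.37, 8.97 and 8.91 in the Tlx3 tumours. Non-tumour Pold1 signals were 5.58 to 6.79 with a median of 6.45, all below the lowest tumour array, which was hGFAP array 4. Pold1 rose by 2.32 (SE 0.19), 5-fold, with a limma adjusted p of 2.01e-11. The smaller delta subunits Pold2 and Pold3 rose by 1.61 (SE 0.17) and 0.89 (SE 0.31), the Pold3 arrays overlapping and its limma adjusted p being 0.0179.

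Polymerase alpha with primase starts each new strand with a short primer. Pola2, its accessory subunit, read 8.31 and 7.88 in the Ptc1+/- tumours, 6.15 to 7.10 with a median of 6.69 in the hGFAP tumours, 7.14 to 8.35 with a median of 7.74 in the Olig2 tumours, 7.66, 7.78 and 7.22 in the Math1 tumours, and 7.03, 7.46 and 7.37 in the Tlx3 tumours. Non-tumour Pola2 signals were 3.37 to 5.78 with a median of 4.20, 2 of them at the floor and none as high as a tumour array. On this probe set the Pola2 rise was at least 3.01, with a fitted difference of 3.10 (SE 0.28) and a limma adjusted p of 1.23e-10. Both kept Pola2 probe sets were called higher, with differences 1.63 apart, and over the alternatives the Pola2 difference went as low as 2.29. The catalytic subunit Pola1 rose by 2.45 (SE 0.35) with overlapping arrays. Prim1, the subunit that makes the RNA primer, read 9.68 and 9.40 in the Ptc1+/- tumours, 7.73 to 9.89 with a median of 9.14 in the hGFAP tumours, 9.01 to 10.15 with a median of 9.89 in the Olig2 tumours, 9.97, 9.83 and 9.90 in the Math1 tumours, and 9.79, 9.64 and 9.40 in the Tlx3 tumours. For Prim1 the non-tumour arrays were at 6.92 to 7.95 with a median of 7.35, and hGFAP array 4 was the single tumour array not above all of them. Prim1 rose by 2.19 (SE 0.22), 4.57-fold, with a limma adjusted p of 1.1e-09. Prim2, the larger primase subunit, read 8.29 and 7.71 in the Ptc1+/- tumours, 8.05 to 8.81 with a median of 8.46 in the hGFAP tumours, 8.09 to 9.12 with a median of 8.87 in the Olig2 tumours, 8.52, 8.26 and 8.76 in the Math1 tumours, and 8.78, 8.42 and 8.38 in the Tlx3 tumours. Its non-tumour signals were 6.04 to 7.09 with a median of 6.60 without overlap, and Prim2 rose by 1.92 (SE 0.17), with another probe set at 0.88 that did not pass the test (adjusted p 0.0636).

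The sliding clamp and its loader rose in 6 of 6 cases by a median of 2.34. Pcna, the clamp that tethers polymerases and serves as a label of dividing cells in tissue, read 12.18 and 12.03 in the Ptc1+/- tumours, 10.57 to 11.99 with a median of 11.44 in the hGFAP tumours, 11.37 to 12.83 with a median of 12.23 in the Olig2 tumours, 12.19, 11.86 and 11.84 in the Math1 tumours, and 11.99, 11.89 and 11.69 in the Tlx3 tumours. Non-tumour Pcna signals were 8.63 to 9.39 with a median of 9.08, more than 1 log2 unit below every tumour array. It rose by 2.88 (SE 0.19), 7.38-fold, with a limma adjusted p of 1.91e-13. The loader subunits, which open the clamp and close it around DNA, rose by 2.87 for Rfc4, 2.36 for Rfc3, 2.33 for Rfc5, 1.24 for the large subunit Rfc1 and 1.18 for Rfc2, with standard errors of 0.21, 0.18, 0.21, 0.14 and 0.15. All 5 loader subunits had every tumour array above every non-tumour array.

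RPA coats single-stranded DNA as a complex of 3 subunits, and 2 of them rose. Rpa2 rose by 2.12 (SE 0.16) without overlap. Rpa3, the smallest subunit, read 9.96 and 9.43 in the Ptc1+/- tumours, 7.04 to 9.07 with a median of 8.87 in the hGFAP tumours, 8.46 to 10.08 with a median of 8.90 in the Olig2 tumours, 9.42, 8.92 and 8.95 in the Math1 tumours, and 9.65, 9.24 and 8.93 in the Tlx3 tumours. Non-tumour Rpa3 signals were 6.97 to 7.39 with a median of 7.09. hGFAP array 4 was the tumour array not above all of them, and Rpa3 rose by 2.04 (SE 0.24), 4.1-fold, with a limma adjusted p of 3.28e-08. Rpa1, the largest subunit, read 10.37 and 10.27 in the Ptc1+/- tumours, 10.19 to 10.98 with a median of 10.46 in the hGFAP tumours, 9.996 to 11.04 with a median of 10.69 in the Olig2 tumours, 10.06, 10.08 and 10.25 in the Math1 tumours, and 10.23, 10.23 and 10.31 in the Tlx3 tumours. With non-tumour Rpa1 signals of 9.87 to 10.53 with a median of 10.13, 7 of 21 tumour arrays were above all of them. The Rpa1 difference was 0.23 (SE 0.14) with a limma adjusted p of 0.169, while its other probe set gave 0.53 with an adjusted p of 0.00237. The mean of both Rpa1 probe sets gave 0.38 with an adjusted p of 0.0102.

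Fen1 and Lig1 finish lagging-strand fragments by cutting the flap and sealing the nick, and 1 of the 2 genes rose (median 0.90). Lig1 read 8.53 and 9.22 in the Ptc1+/- tumours, 7.62 to 8.80 with a median of 8.07 in the hGFAP tumours, 8.24 to 9.35 with a median of 9.03 in the Olig2 tumours, 8.60, 8.44 and 8.74 in the Math1 tumours, and 8.53, 8.70 and 8.45 in the Tlx3 tumours. Non-tumour Lig1 signals were 6.22 to 6.86 with a median of 6.60, below every tumour array, and Lig1 rose by 2.04 (SE 0.17), 4.11-fold, with a limma adjusted p of 3.01e-11. The 2 Fen1 probe sets differed. On 1436454_x_at, the brighter one and the one used in all counts, Fen1 read 9.42 and 8.93 in the Ptc1+/- tumours, 8.64 to 10.84 with a median of 10.13 in the hGFAP tumours, 9.26 to 10.12 with a median of 9.80 in the Olig2 tumours, 9.55, 9.48 and 9.56 in the Math1 tumours, and 9.56, 9.35 and 9.57 in the Tlx3 tumours. Its non-tumour signals were 9.02 to 10.51 with a median of 9.97, in the middle of the tumour range, and the difference was -0.24 (SE 0.23) with a limma adjusted p of 0.401. On 1421731_a_at it read 8.02 and 8.11 in the Ptc1+/- tumours, 7.10 to 8.26 with a median of 7.47 in the hGFAP tumours, 7.59 to 8.96 with a median of 8.43 in the Olig2 tumours, 8.18, 7.63 and 8.49 in the Math1 tumours, and 8.40, 8.28 and 8.13 in the Tlx3 tumours. Non-tumour signals there were 5.57 to 6.75 with a median of 6.13, below every tumour array, with a rise of 1.94 and a limma adjusted p of 2.47e-09. The mean of both Fen1 probe sets gave a rise of 0.85 with an adjusted p of 1.34e-05. The suffix of the first probe set is the one Affymetrix gives to probe sets that can cross-hybridise with other sequences. The probe sets used for Rrm2, Mcm4 and Mcm5 carry the same suffix. The part of cross-hybridisation in the difference between the Fen1 probe sets, or in the values of those 3 genes, was not tested.

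**Figure D4:**
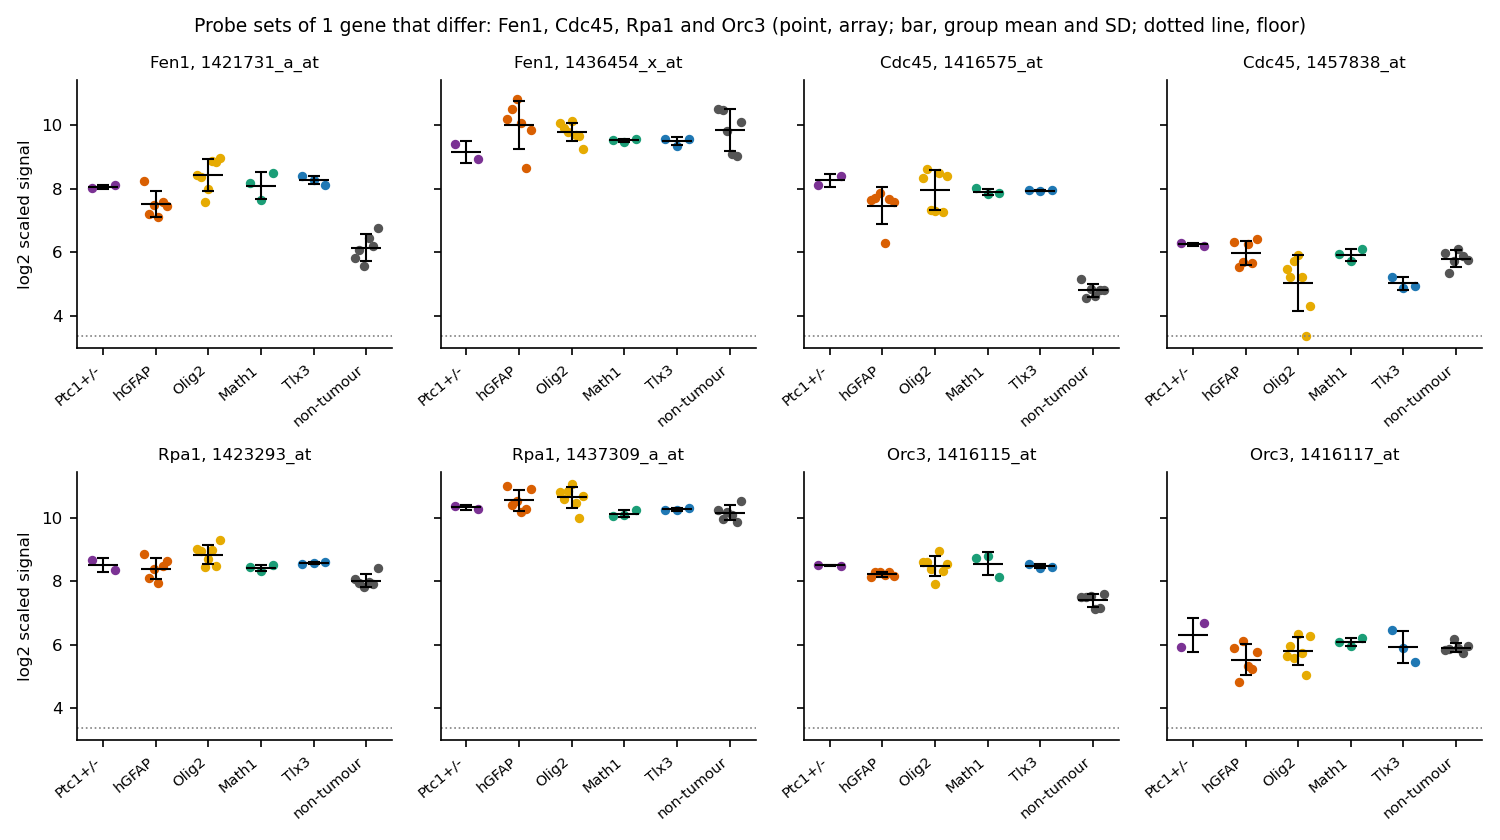
Log2 signal by array and group for a pair of probe sets each of Fen1, Cdc45, Rpa1 and Orc3, with points for arrays and bars for group means and SDs. Fen1 1421731_a_at and Cdc45 1416575_at separate tumour from non-tumour arrays, whereas Fen1 1436454_x_at and Cdc45 1457838_at overlap.

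Over all members, 83 of the 94 kept probe sets were higher and 0 lower, where 24.4% of 30107 probe sets were higher. Of 32 members with more than 1 kept probe set, 29 had all of them above 0, Cdc45 and Fen1 had both signs, and Orc4 had all below 0. Every kept probe set was called higher for 24 of those 32.

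The nucleotide supply enzymes rose in 4 of 4 cases with a fitted median of 3.74. Rrm2, the small subunit of ribonucleotide reductase and the one made in S phase, read 11.31 and 10.62 in the Ptc1+/- tumours, 9.63 to 11.73 with a median of 11.48 in the hGFAP tumours, 9.78 to 11.68 with a median of 10.92 in the Olig2 tumours, 11.11, 11.11 and 11.03 in the Math1 tumours, and 10.76, 10.84 and 11.12 in the Tlx3 tumours. Non-tumour Rrm2 signals were 4.47 to 6.24 with a median of 5.36, more than 3 log2 units below the lowest tumour array. Rrm2 rose by 5.61 (SE 0.27), 48.9-fold, with a limma adjusted p of 2.43e-16, and its probe sets gave 5.61, 5.28 and 4.91. Rrm1, the large subunit, read 9.98 and 10.13 in the Ptc1+/- tumours, 8.46 to 9.44 with a median of 9.18 in the hGFAP tumours, 9.06 to 10.70 with a median of 9.99 in the Olig2 tumours, 9.99, 9.62 and 9.70 in the Math1 tumours, and 9.87, 9.55 and 9.69 in the Tlx3 tumours. Non-tumour Rrm1 signals were 6.52 to 7.30 with a median of 6.72, again with no overlap, and Rrm1 rose by 2.90 (SE 0.20), 7.46-fold, with a limma adjusted p of 7.78e-13. Tk1, the thymidine salvage kinase of dividing cells, read 8.39 and 8.32 in the Ptc1+/- tumours, 3.76 to 8.49 with a median of 7.64 in the hGFAP tumours, 7.42 to 9.27 with a median of 8.67 in the Olig2 tumours, 8.86, 8.96 and 8.37 in the Math1 tumours, and 8.11, 8.68 and 7.88 in the Tlx3 tumours. Non-tumour Tk1 signals were 3.37 to 4.77 with a median of 3.37, with 4 arrays at the floor and array 6 highest. hGFAP array 4, at 3.76, was the single tumour array that was not above all of them. The Tk1 rise was at least 4.49, 22.5-fold, with a fitted difference of 4.58 (SE 0.42), a limma adjusted p of 1.95e-10, and a fitted difference of 4.94 without the 2 arrays that stood apart. Tyms makes thymidylate from deoxyuridylate, and it rose by 1.37 (SE 0.27), the least of the 4 on the probe sets used. Its signals were 3.37 to 5.89 with a median of 5.15 in tumours, against 3.37 to 4.57 in non-tumour tissue. Olig2 array 6 was the tumour array at the floor, and 2 non-tumour arrays were there as well, so this difference is not a bound. The tumour median of Tyms was below the table median used by the filter, so its probe set was dim in tumours too. The filter kept 2 of the 4 Tyms probe sets. The part of this dim signal in the low rank of Tyms was not tested.

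Uhrf1 binds newly copied, hemimethylated DNA and brings the maintenance methyltransferase to the fork. It read 10.05 and 9.34 in the Ptc1+/- tumours, 7.18 to 9.74 with a median of 8.91 in the hGFAP tumours, 8.14 to 10.14 with a median of 9.67 in the Olig2 tumours, 9.69, 9.68 and 9.79 in the Math1 tumours, and 9.50, 9.60 and 9.53 in the Tlx3 tumours. Non-tumour Uhrf1 signals were 3.37 to 5.50 with a median of 3.40, 3 of them at the floor, with array 6 highest and all below the tumours. Uhrf1 rose by at least 5.38, 41.5-fold, with a fitted difference of 5.50 (SE 0.32), a limma adjusted p of 2.46e-14, and a fitted difference of 5.88 without hGFAP array 4 and non-tumour array 6.

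Other genes of the same processes, listed by function, were mostly called higher too, with smaller medians. Over all genes tested, 26.8% were called higher and 25.6% lower in this comparison of all tumours with non-tumour tissue. Of 33 other fork and chromatin replication genes 31 were tested, 25 were higher and 1 was lower, with a median of 1.47. Ticrr, which helps origins fire, was higher by at least 3.30 with all 6 non-tumour arrays at the floor, the histone chaperone Asf1b by at least 3.29 with 2 at the floor, and the chromatin assembly subunit Chaf1b by 3.00. Rif1, a regulator of replication timing, was lower, at -0.53 (limma adjusted p 0.0319), while Pold4 at -0.07 (0.779) and Donson at 0.16 (0.646) did not pass the test. Of 22 other nucleotide synthesis genes 20 were tested, 17 were higher and 1 was lower, with a median of 1.15. Dut, which removes dUTP, was higher by 2.15, Dctpp1 by 2.14 and the deoxycytidine kinase Dck by 1.78. Rrm2b, the small reductase subunit of cells that are not dividing, was lower, at -0.44 (limma adjusted p 0.0292), which is opposite in sign to Rrm2. Dhodh at -0.22 (adjusted p 0.392) and the mitochondrial kinase Dguok at 0.24 (adjusted p 0.624) did not pass the test.

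Each tumour group was also set against the same non-tumour arrays. In the Ptc1+/- tumours 44 members were higher (17.9% of all genes), in the hGFAP tumours 41 (22.5%), in the Olig2 tumours 44 (24.7%), in the Math1 tumours 42 (19.3%) and in the Tlx3 tumours 41 (19.7%), and 0 were lower in any group, where 18.4%, 19.2%, 25%, 18.1% and 20.6% of all genes were lower. Without hGFAP array 4 and non-tumour array 6 the counts were 43, 44, 45, 43 and 42, given in that order of groups, with no share of all genes beside them. Medians over the 48 genes were 2.52 in Ptc1+/-, 2.00 in hGFAP, 2.45 in Olig2, 2.44 in Math1 and 2.34 in Tlx3 tumours. In all 5 groups 39 members were higher, against 12.1% of all genes. Orc4 and Fen1 passed in no group, Gins3 and Pold3 did not pass in hGFAP, Olig2, Math1 or Tlx3 tumours but passed in Ptc1+/- tumours, and Orc5 did not pass in Ptc1+/-, hGFAP or Math1 tumours. Rpa1 passed in the Olig2 tumours alone, at 0.49. Cdc7 was not called in hGFAP tumours, and Orc1 and Tyms were not called in Tlx3 tumours. Whether these genes differed between tumour groups is given by the direct comparisons that follow.

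Among the 4 SmoM2 groups, limma's F test called 0 of the 48 members at an adjusted p under 0.05, with 17 at an unadjusted p under 0.05, and 0.946% of all genes called. Here and in the comparisons below, shares of all genes are for adjusted calls, and counts at an unadjusted p have no such share beside them. The smallest adjusted p were 0.0517 for Pold1 (F 7.84), 0.0558 for Mcm3, 0.0659 for Mcm7, 0.0794 for Cdc6, 0.110 for Lig1 and 0.115 for Rrm1. The hGFAP tumours had the lowest mean of the 5 tumour groups for 33 of the 48 members, where they had it for 19.6% of all genes, and for 27 members without hGFAP array 4 (16.8% of all genes). Tlx3 tumours had the lowest mean for 8 members (26.4% of all genes), Ptc1+/- for 4 (25.7%), Math1 for 2 (11.6%) and Olig2 for 1 (16.7%). The highest mean was in Olig2 tumours for 18 members (12.8% of all genes), in Ptc1+/- for 17 (27.3%) and in Math1 for 10 (13.8%). It was in hGFAP tumours for 3 members (27.2% of all genes) and in Tlx3 tumours for 0 (18.9%).

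The hGFAP and Olig2 tumours together were set against the Math1 and Tlx3 tumours, which asks whether tumours started by drivers of multipotent progenitors differ from those started by drivers of the granule lineage. No member was called, that is 0 of 48 by limma with 2 at an unadjusted p under 0.05, and 0.259% of all genes were called. The median difference was -0.05. Pold1 was at -0.56 (SE 0.20) with an adjusted p of 0.183, and Rpa1 was at 0.40 (SE 0.14) with an adjusted p of 0.197. Mcm3 differed by 0.33 (SE 0.18), Uhrf1 by -0.61 (SE 0.34), Dbf4 by -0.37 (SE 0.21) and Prim1 by -0.40 (SE 0.23), with limma adjusted p from 0.385 to 0.402. The comparison set 13 arrays against 6 with equal weight for the groups on each side. Its standard errors use the spread within all 6 groups of the model.

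Within the progenitor-driver pair, hGFAP tumours were lower than Olig2 tumours for 7 members and higher for 0, where 1.07% of all genes were lower and 1.91% higher. Of the 48 differences 43 were below 0, with a median of -0.51 against 0.09 over all genes. An unadjusted p under 0.05 was found for 26, a count with no share of all genes beside it. The 7 were Mcm3 at -0.90 (SE 0.21), Mcm7 at -0.66 (SE 0.15), Pold1 at -0.87 (SE 0.22), Cdc6 at -0.92 (SE 0.23), Lig1 at -0.77 (SE 0.20), Rrm1 at -0.88 (SE 0.23) and Pcna at -0.81 (SE 0.22). Limma adjusted p were 0.0219, 0.0225, 0.0312, 0.0312, 0.0332, 0.0373 and 0.04. For each of the 7, all 6 hGFAP arrays were below the median of the Olig2 arrays, but the groups overlapped, with 5 hGFAP arrays below every Olig2 array for Mcm7, 4 for Mcm3, Pold1 and Cdc6, 3 for Lig1 and Pcna and 2 for Rrm1. Pola2 showed no overlap, with all 6 hGFAP arrays below all 7 Olig2 arrays at -1.05 (SE 0.32) and an adjusted p of 0.062. Pola2 was chosen for mention here after its values were seen.

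These 7 calls depended on single arrays and on the model. With all arrays kept, 0 members were called when those groups alone were fitted (limma adjusted p of the 7 from 0.131 to 0.196), 0 on unscaled signals and 1 with the 3' over 5' ratio as a covariate, where the members' median was -0.32. Without hGFAP array 4 and non-tumour array 6, 4 members were lower: Mcm7 at -0.64 (limma adjusted p 0.0228), Rfc3 at -0.83 (0.0338), Rfc1 at -0.60 (0.0453) and Mcm3 at -0.79 (0.0473). Pold1 then stood at -0.71 (adjusted p 0.0646), Lig1 at -0.70 (0.0659), Cdc6 at -0.76 (0.0692), Rrm1 at -0.76 (0.0769) and Pcna at -0.64 (0.0867), and 39 of 48 members were below 0 with a median of -0.32. Without Olig2 array 5 or Olig2 array 7 the count was 0, without Olig2 array 6 or hGFAP array 5 it was 1, without hGFAP array 2 it was 3, without hGFAP array 3 or hGFAP array 4 it was 4, without Olig2 array 4 it was 13 and without Olig2 array 3 it was 17. The counts in this paragraph have no share of all genes beside them, so they do not show how far all genes moved. The summed signal of dividing-cell markers was 3768 to 9416 with a median of 7299 in hGFAP tumours, against 6825 to 14501 with a median of 10322 in Olig2 tumours. That of mature granule neuron markers was 3226 to 7077 with a median of 4795 in hGFAP tumours, against 1954 to 6289 with a median of 3392 in Olig2 tumours. Astrocyte markers summed to 6566 to 12191 with a median of 8593 in hGFAP tumours, against 3896 to 7267 with a median of 5505 in Olig2 tumours. The mean log2 ratio of 3' over 5' control probe sets was 0.32 to 1.88 with a median of 0.89 in hGFAP tumours, against -0.15 to 1.78 with a median of 0.13 in Olig2 tumours. Trimmed means before rescaling were 74.1 to 153 with a median of 99.6 in hGFAP tumours, against 42.6 to 205 with a median of 77.9 in Olig2 tumours. The part of the marker cell types in the members' differences was not tested.

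**Figure D5:**
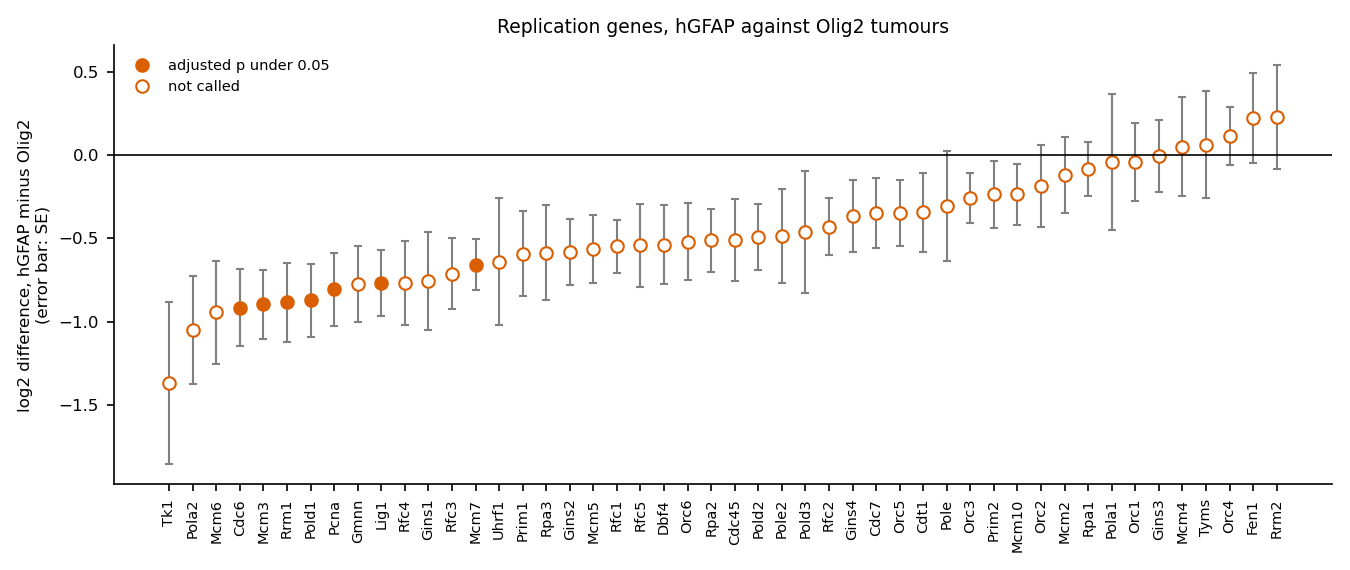
Log2 difference of hGFAP minus Olig2 tumours for each of the 48 genes in order of size, with points for limma estimates, bars for standard errors and filled points where the adjusted p was under 0.05. Of the 48 points 43 are below 0 and 7 are filled.

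The Ptc1+/- tumours were set against the mean of the 4 SmoM2 groups. Limma called 0 of 48 members, with 0 at an unadjusted p under 0.05 and 0.547% of all genes called. The median difference was 0.20, and 37 of 48 were above 0. The median and the share above 0 over all genes are not given for this comparison, so these values have no background. Prim2 was at -0.55 (SE 0.27), Mcm2 at 0.55 (SE 0.31), Pola2 at 0.78 (SE 0.43), Rpa3 at 0.67 (SE 0.38), Fen1 at -0.54 (SE 0.36) and Gins3 at 0.43 (SE 0.29), with adjusted p from 0.432 to 0.579. With 2 Ptc1+/- arrays, differences of this size could not be told from 0.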

How the data were processed

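Total RNA from 27 mouse cerebellar samples was hybridised to 1-colour Affymetrix arrays, and the authors deposited 1 linear MAS5 signal intensity per probe set and array, per the submitters' processing notes. The MAS5 version and scaling target are not given in the sources used here. Probe set genes came from the platform annotation: of 45101 probe sets 34958 listed 1 gene, 932 several and 9211 were not listed and stay unnamed here. Of the first, 34754 were matched to current symbols by Entrez ID and 0 were renamed. The 64 control probe sets were left out of tests. No pair of arrays held identical values (0 pairs).

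From the deposited intensities, each array was rescaled to a common 2% trimmed mean of 124, values under the 20th percentile (10.3) were set to it, and log2 was taken. Probe sets above the table median of 45.6 on at least 3 arrays were kept (30107), and the highest-mean probe set stood for a gene. All 27 arrays entered 1 model with 6 group means and no covariate (limma 3.58.1, R 4.3.3, trend and robust, 21 residual degrees of freedom), with Benjamini-Hochberg adjustment over 13527 genes. Signal intensities give no count of molecules, so the number of arrays limits the precision. The fit was tested on simulated data.

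Members and lists were chosen with earlier results of these data known. Every member is named, with array values for the 8 highest, the 6 lowest, those with probe sets on both sides of 0 and up to 6 with the smallest p in each comparison among tumours, and the 3 highest and 3 lowest of each further list. Listed genes without a kept probe set of 1 gene were not tested, and some items are not reported here. Alternatives changed the scaling, floor, filter, probe set rule, variance model, array weights, replicate block, controls, dim arrays, a 3' over 5' covariate and single arrays.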

Additional observations from a re-analysis of the deposited data

Results flagged for a closer look

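Within groups of 4 to 10 arrays, a gene was listed here when the gap between its most extreme array and the next exceeded Dixon's 95% limit. Chance gives such a gap in about 1 of 20 groups (5%), and 11 were found in the 141 groups of the 48 genes tested. Of the 11, 8 were on hGFAP array 4, where the log2 signal was lowest of the 6 hGFAP arrays: Cdc45 at 6.29 (next 7.59), Gins1 at 6.51 (next 7.40), Pola1 at 5.93 (next 7.69), Pold3 at 4.20 (next 7.25), Rfc5 at 6.49 (next 7.76), Rpa3 at 7.04 (next 8.64), Rrm2 at 9.63 (next 11.16) and Tk1 at 3.76 (next 7.12). On non-tumour array 6, Mcm4 at 7.44 and Tk1 at 4.77 were the highest of the 6 non-tumour arrays, the next being 6.59 and 3.56. Tyms at 3.37 on Olig2 array 6, the floor, was the lowest of the 7 Olig2 arrays, the next being 5.05.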

How the results depend on the processing

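The counts of members called were recomputed under 43 alternatives, of which the removal of the 5 arrays with a mean 3' over 5' log2 ratio over 1, and of hGFAP array 4 with non-tumour array 6, were chosen after seeing the data. With the deposited values left unscaled, the median of all genes in all tumours shifted by -0.36, 26 members were called in Ptc1+/- tumours against non-tumour (25 higher, 1 lower, with 41.1% of all genes called), 28 in hGFAP and Olig2 against Math1 and Tlx3 (all lower, with 50.7% of all genes called), 0 in hGFAP against Olig2 and 1 among the SmoM2 groups. For hGFAP against Olig2, the count was 12 with a pseudocount of 16, 4 with controls of the Olig2 and hGFAP lines alone, 0 without the 7 dim arrays, 1 with the 3' over 5' ratio as a covariate, 0 with only those groups fitted, 15 without the arrays of a high 3' over 5' ratio, and 4 without hGFAP array 4 and non-tumour array 6. The dim arrays, with a trimmed mean under 85, were Olig2 arrays 3 to 7, hGFAP array 4 and Ptc1+/- array 2. Without them Olig2 arrays 1 and 2 alone stood for that group, and the members' median for hGFAP against Olig2 was -0.57. Among the SmoM2 groups the count was 2 with the pseudocount, 3 with the mean of probe sets, 8 with array weights and 5 without the arrays of a high 3' over 5' ratio, and array weights gave 1 when hGFAP with Olig2 was set against Math1 with Tlx3. Leaving out 1 array at a time gave 44 to 45 for all tumours, 38 to 45 for Ptc1+/-, 40 to 43 for hGFAP, 43 to 45 for Olig2, 40 to 43 for Math1, 37 to 42 for Tlx3, 0 to 17 for hGFAP against Olig2, 0 to 5 among the SmoM2 groups, 0 to 0 for the other comparisons among tumours and 80 to 84 probe sets. Where no share of all genes stands beside a count, it cannot be told whether the members alone moved. The causes were not tested.

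Fen1 turned to 0.85 (limma adjusted p 1.34e-05) when its probe sets were averaged. Without scaling Orc1, Orc2, Orc5, Cdc7, Gins3, Gins4 and Pold3 lost their call in all tumours, Gins3 did so in 7 of 43 alternatives, and Orc5 and Pold3 also did with controls of the Olig2 and hGFAP lines alone. Rpa1 passed with the mean of probe sets (0.38) and with array weights (0.27). Orc4 changed sign in 12 of 43 and was called higher in none.

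The labels do not say that replicate numbers pair the samples. Over 49 same-number pairs the correlation of deviations ran from -0.34 to 0.28 with a median of 0.03 (19 over 0.1). The median over 244 other pairs was 0.004. These correlations do not settle whether samples were paired. With the number as a replicate block, 1 member was called in hGFAP against Olig2.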
